A study of Mus musculus with 4 samples.

Results

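miR-193 and miR-365 are encoded in 2 mouse gene clusters that each hold a hairpin of either kind. Rows of the deposited tables were chosen by their name alone (mmu-miR-193 with its starred arm, mmu-miR-193b and mmu-miR-365), and 4 of the 590 miRNA names listed in any library fitted: miR-193*, miR-193, miR-193b and miR-365. The study sequenced small RNA of synovial fibroblasts, which line the joint. The cells came from hind joints of 8-week-old mice and were cultured to passage 4. TghuTNF mice carry a human TNF transgene and develop arthritis. Their WT littermates had no transgene, and both genotypes shared the strain background CBA/J * C57BL/6/J. There were 2 TghuTNF and 2 WT libraries, each a biological replicate per the series design. The promoter of the transgene is not given in the sources used here, and per the labels a minor part of each culture lacked the fibroblast surface marker CD90.2.

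A mature miRNA is cut from one arm of a hairpin RNA, loaded into an Argonaute protein and pairs with messenger RNAs through its seed, the bases near its 5′ end. The hairpin's other arm is usually scarcer and carries a star in the older naming used here. miR-193 and miR-193b have been shown, mainly in human cells, to repress Mcl1, a survival protein, Ccnd1 (cyclin D1), which drives cells into division, and Plau, the urokinase protease of matrix breakdown. miR-365 has been reported to repress cyclin D1 and interleukin-6 in human cells, and Hdac4, a brake on cartilage cell maturation, in chicken chondrocytes. In mouse fat precursors the miR-193b and miR-365 cluster has been linked to brown fat differentiation.

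The mature sequences are given because they show which members share a seed and how far reads of one could match another. Sequences are from RefSeq, build GRCm38.p6, read 5′ to 3′ with bases 2 to 8, the seed, in capitals; all 4 rows were matched.
miR-193*: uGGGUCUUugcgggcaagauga
miR-193: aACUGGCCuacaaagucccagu
miR-193b: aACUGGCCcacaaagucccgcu
miR-365: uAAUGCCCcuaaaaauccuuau
RefSeq calls them miR-193a-5p, miR-193a-3p, miR-193b-3p and miR-365-3p. Each is 22 bases long. miR-193 and miR-193b had the same seed, and among 1679 mature mouse names compared no further one had it. No other name shared the seed of miR-193* or that of miR-365. Counted from the 5′ end, miR-193b and miR-193 differed at 3 of 22 bases, C9U, G20A and C21G (the base of miR-193b first). Compared over their whole overlap, of at least 18 bases without gaps, none of the 4 came within 2 mismatches of another mature sequence. The authors' limit of 2 mismatches therefore separates full-length reads without errors of miR-193 from those of miR-193b. Reads with an error at a base where they differ, and reads cut short at the 3′ end, could still match both.

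In GRCm38, Mir193a lies on the plus strand of chromosome 11 at 79711969 to 79712034 and Mir365-2 at 79726400 to 79726511, with 14365 bases between them. Neither overlaps an annotated gene other than miRNA genes in GENCODE release M21, and the nearest such gene upstream of both is the long non-coding RNA Gm11205. Mir193b lies on the plus strand of chromosome 16 at 13449523 to 13449601 and Mir365-1 at 13453840 to 13453926, with 4238 bases between them. Both of these hairpins lie in an intron of Gm15738, an antisense RNA gene on the minus strand. The next 4 lines give the hairpins with the counted mature arms in capitals, since they show why reads of miR-365 cannot be assigned to a cluster.
mir-193a: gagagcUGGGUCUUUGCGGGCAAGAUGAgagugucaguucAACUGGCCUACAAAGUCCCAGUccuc
mir-365-2: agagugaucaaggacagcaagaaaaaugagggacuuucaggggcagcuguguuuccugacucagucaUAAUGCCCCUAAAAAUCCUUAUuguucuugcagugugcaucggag
mir-193b: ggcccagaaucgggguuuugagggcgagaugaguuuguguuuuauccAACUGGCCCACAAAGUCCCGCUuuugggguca
mir-365-1: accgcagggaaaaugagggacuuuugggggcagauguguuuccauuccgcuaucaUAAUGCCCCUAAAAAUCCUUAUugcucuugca
The mature miR-365 is letter for letter the same in both mir-365 hairpins. A read of miR-365 can therefore come from either chromosome, while miR-193* and miR-193 report on chromosome 11 and miR-193b on chromosome 16.

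**Figure D1:**
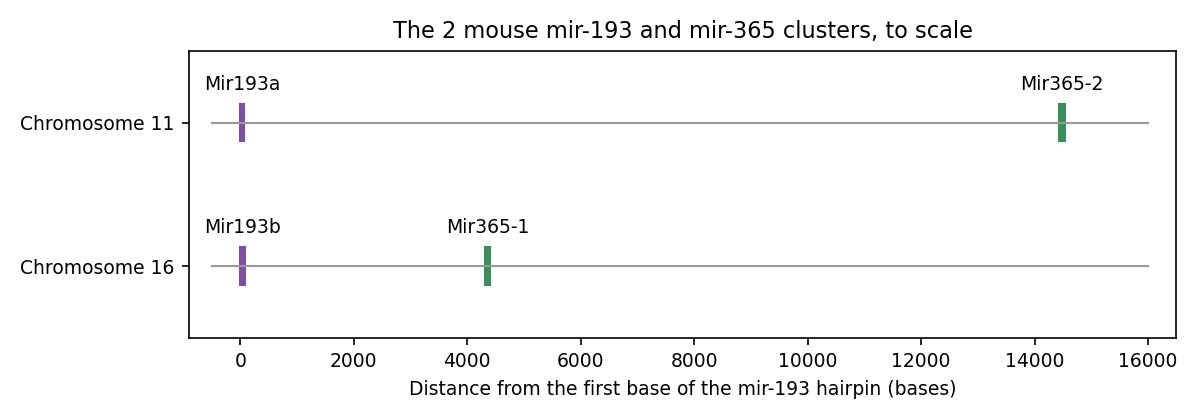
Map of both clusters to scale. The x axis gives the distance in bases from the first base of the mir-193 hairpin, purple blocks are mir-193 hairpins and green blocks mir-365 hairpins; the gap is 14365 bases on chromosome 11 and 4238 bases on chromosome 16.

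The libraries held 27362819 and 22959408 total matches in TghuTNF and 16680860 and 26542371 in WT, so 1 match was worth 0.0366 to 0.0600 counts per 1000000 matches (CPM). TghuTNF replicate 2 stood apart from the other libraries: 11.7% of all its matches had 2 mismatches, against 8.21% in TghuTNF replicate 1 and 8.64% and 8.73% in WT. Results are therefore also given without it where it decides them. Of the miRNAs listed, 442 passed the filter on low counts, all 4 members among them with at least 57 reads in every library, and of these 442 edgeR's quasi-likelihood test called 21 (4.75%) higher and 38 (8.60%) lower in TghuTNF, 59 in all or 13.3%, at an adjusted p under 0.05. The median log2 fold change over all 442 was 0.0056. Of the members 0 were called. With DESeq2 0 were called as well, and 1 member, miR-365, had an unadjusted p under 0.05 in edgeR, as did 29.0% of all tested miRNAs. For 2 of the 4, miR-365 and miR-193b, both TghuTNF libraries lay above both WT libraries. Over all tested miRNAs 30.8% lay above in this way, 29.9% below and 60.6% either way. For miR-193b the margin was small and was lost with perfect matches only. The rows were chosen by name, but the family was proposed with the genotype differences of these libraries known, so their fold changes, tests and counts are a description and support nothing by themselves. Each edgeR adjusted p below is over all 442 miRNAs, each CPM is scaled by the trimmed mean of M values (TMM), and fold changes are TghuTNF over WT with their standard error (SE). In a culture, fewer cells that make a miRNA and less of it per cell cannot be told apart.

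All members were scarce. Together their rows took 0.0075% and 0.0073% of matches in TghuTNF and 0.0072% and 0.0066% in WT. miR-193* was the most abundant, at percentile 63.8 of mean CPM among the tested miRNAs, followed by miR-365 (percentile 43.7), miR-193 (percentile 40.3) and miR-193b (percentile 28.5). The levels of miR-365 and miR-193, neighbours in that order, overlapped between libraries. All 4 have the same length, but adaptor ligation favours some sequences, so levels of different miRNAs compare only roughly.

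miR-365, the member encoded in both clusters, showed the clearest separation by genotype. Its reads numbered 334 and 302 in TghuTNF and 136 and 178 in WT. These were 12.1 and 13.4 CPM in TghuTNF, against 8.28 and 6.54 CPM in WT. Both TghuTNF libraries lay above both WT libraries. The exact 95% binomial intervals of the unscaled CPM did not meet between genotypes: 10.9 to 13.6 and 11.7 to 14.7 in TghuTNF, against 6.84 to 9.64 and 5.76 to 7.77 in WT. Such intervals cover the counting of reads only, not the spread between cultures, and the reads carry no molecular identifiers. Group means were 12.8 ± 0.93 CPM in TghuTNF and 7.41 ± 1.23 CPM in WT (SD, n = 2 each). The fold change was 1.73, or 0.79 ± 0.27 on the log2 scale, and did not pass (edgeR adjusted p = 0.085). The log2 value was 0.91 with perfect matches only and 0.62 to 0.96 over the fits that left out a library. Without TghuTNF replicate 1, a fit with a single TghuTNF library assumed to vary like WT, it was 0.79 and passed (edgeR adjusted p = 0.030); that fit called 61 miRNAs higher and 92 lower in all.

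miR-193b, whose hairpin lies beside mir-365-1 on chromosome 16, was the scarcest member. It had 143 and 79 reads in TghuTNF and 57 and 85 in WT. These were 5.18 and 3.51 CPM in TghuTNF, against 3.47 and 3.12 CPM in WT. TghuTNF replicate 1 was the high library, while TghuTNF replicate 2 stood just above WT replicate 1. The counting intervals of that pair, 2.72 to 4.29 and 2.59 to 4.43 unscaled CPM, largely coincide. With perfect matches only, miR-193b had 4.02 and 2.40 CPM in TghuTNF and 2.62 and 2.17 CPM in WT. TghuTNF replicate 2 was then below WT replicate 1, so the genotypes overlapped. Means over all matches were 4.34 ± 1.18 CPM in TghuTNF and 3.30 ± 0.25 CPM in WT (SD, n = 2 each). The log2 fold change of 0.41 ± 0.32 did not pass (edgeR adjusted p = 0.43). It was 0.016 without TghuTNF replicate 1 and 0.63 without TghuTNF replicate 2, neither of which passed.

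miR-193, the 3′ arm of mir-193a on chromosome 11, was high in a single library. It had 151 and 316 reads in TghuTNF and 103 and 162 in WT. These were 5.47 and 14.0 CPM in TghuTNF, against 6.27 and 5.95 CPM in WT. TghuTNF replicate 2 was above all others and TghuTNF replicate 1 below both WT libraries, so the genotypes overlapped. Means were 9.75 ± 6.05 CPM in TghuTNF and 6.11 ± 0.23 CPM in WT (SD, n = 2 each), and the log2 fold change of 0.67 ± 0.40 did not pass (edgeR adjusted p = 0.28). The sign depended on the library: the log2 value was -0.19 without TghuTNF replicate 2 (edgeR adjusted p = 0.80) and 1.12 without TghuTNF replicate 1, where it passed (edgeR adjusted p = 0.0013). TghuTNF replicate 2 remained the high library among perfect matches, with 4.02 and 9.15 CPM in TghuTNF and 5.30 and 5.22 CPM in WT, and the log2 fold change was then 0.34.

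miR-193*, the 5′ arm of the same hairpin, did not share that profile. It had 1418 and 988 reads in TghuTNF and 900 and 1333 in WT, the most of any member and the least counting error. These were 51.4 and 43.9 CPM in TghuTNF, against 54.8 and 49.0 CPM in WT. Here TghuTNF replicate 2, the high library for miR-193, was the lowest of the 4, and TghuTNF replicate 1 lay between the WT libraries. Means were 47.6 ± 5.30 CPM in TghuTNF and 51.9 ± 4.11 CPM in WT (SD, n = 2 each), with a log2 fold change of -0.12 ± 0.23 (edgeR adjusted p = 0.76).

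**Figure D2:**
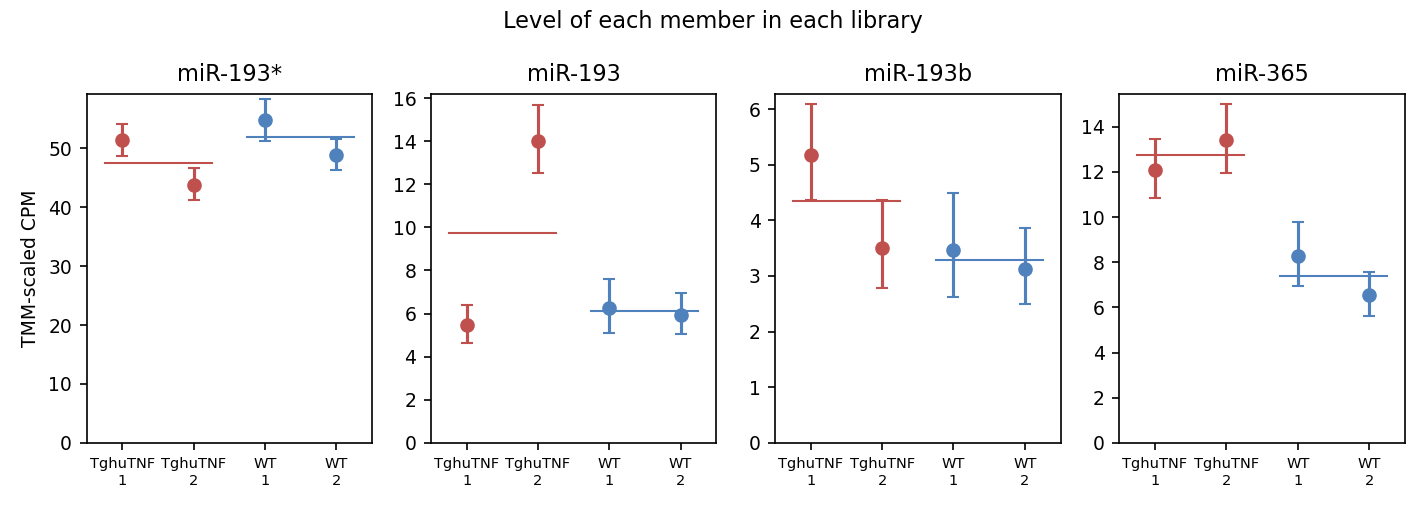
TMM-scaled CPM of each member (y axis, linear from 0, a scale for each panel) in the 2 TghuTNF and 2 WT libraries. Points are libraries with exact 95% counting intervals and lines are genotype means; miR-365 lies at 12.1 and 13.4 CPM in TghuTNF and 8.28 and 6.54 CPM in WT, while miR-193 stands out in TghuTNF replicate 2 alone, at 14.0 CPM.

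Both arms of mir-193a come from the same hairpin, so their ratio within a library needs no scaling between libraries. miR-193* exceeded miR-193 in every library: there were 9.36 and 3.12 reads of miR-193* per read of miR-193 in TghuTNF (0.5 reads added to each arm), against 8.70 and 8.21 in WT. TghuTNF replicate 1 and both WT libraries were close, and TghuTNF replicate 2 was low. The log2 change of the ratio was -0.64 ± 0.50 and did not pass (limma adjusted p = 0.82 over 106 hairpins with both arms past the filter, of which 0, or 0.00%, were called and 6 had an unadjusted p under 0.05). Without TghuTNF replicate 2 the change was 0.15. Of the 106 hairpins, 6 including mir-193a had a gap between the TghuTNF libraries at least as wide as its 1.58 on the log2 scale. With perfect matches only the ratios were 11.3 and 3.84 in TghuTNF and 8.95 and 8.16 in WT.

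Ratios between members were taken within each library too. There were 2.34 and 3.82 reads of miR-365 per read of miR-193b in TghuTNF, against 2.39 and 2.09 in WT. Per read of miR-193 there were 2.21 and 0.96 reads of miR-365 in TghuTNF, against 1.32 and 1.10 in WT. The ratio of miR-193b to miR-193 was 0.95 and 0.25 in TghuTNF, on either side of the 0.55 and 0.52 in WT. None of these 3 ratios separated the genotypes. The seed that miR-193 and miR-193b share summed to 10.6 and 17.5 CPM in TghuTNF, against 9.74 and 9.07 CPM in WT, with 48.6% and 20.0% of it from miR-193b in TghuTNF and 35.6% and 34.4% in WT. Both TghuTNF sums were above both WT sums, the nearest pair by less than 1 CPM, and with perfect matches only the sums were 8.04 and 11.5 CPM in TghuTNF and 7.91 and 7.38 CPM in WT.

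**Figure D3:**
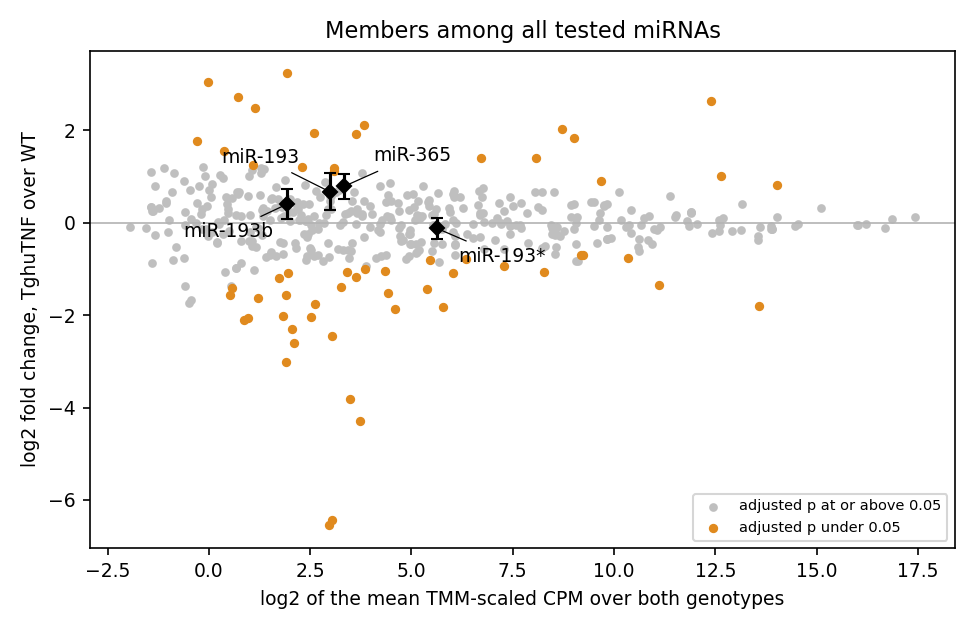
Log2 fold change, TghuTNF over WT (y axis), against log2 of mean TMM-scaled CPM (x axis) for the 442 tested miRNAs. Orange points passed edgeR's test (59), grey points did not, and black diamonds with SE bars are the members, which sit between -0.12 for miR-193* and 0.79 for miR-365, none of them called.

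The authors list for each miRNA how many reads matched with 0, 1 or 2 mismatches. For miR-193 the perfect share was 73.5% (exact 95% binomial interval 65.7% to 80.4%) and 65.2% (59.7% to 70.4%) in TghuTNF, against 84.5% (76.0% to 90.9%) and 87.7% (81.6% to 92.3%) in WT. Both TghuTNF libraries were below both WT libraries. Reads with 2 mismatches numbered 23 and 28 in TghuTNF, or 15.2% and 8.86%, against 3 and 3 in WT, or 2.91% and 1.85%. Reads with 1 mismatch numbered 17 and 82 in TghuTNF and 13 and 17 in WT. The excess in TghuTNF replicate 1 was thus of reads with 2 mismatches, in a library whose overall share of such reads was the lowest of the 4, and that in TghuTNF replicate 2 mostly of reads with 1. The log2 odds of a perfect match changed by -1.42 ± 0.31, the second lowest of 267 miRNAs with at least 100 matches in every library, and did not pass (limma unadjusted p = 0.0081, adjusted p = 0.83). Of the 267, 0 (0.00%) were called and 9 had an unadjusted p under 0.05. Both TghuTNF libraries had lower perfect shares than both WT libraries for 27.0% of them. The perfect share was named as a readout when the family was proposed, so the rank and p of miR-193 are a description only. Its change was -1.70 without TghuTNF replicate 1 and -1.14 without TghuTNF replicate 2.

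miR-365 went the other way. Its perfect share was 71.0% and 71.2% in TghuTNF, against 65.4% and 66.3% in WT, with both TghuTNF libraries above both WT libraries but counting intervals that overlap. The log2 odds changed by 0.35 ± 0.21 and did not pass (limma adjusted p = 0.83). The background was uneven: 27.0% of the 267 miRNAs had lower perfect shares in both TghuTNF libraries than in both WT libraries and 7.12% higher ones (34.1% either way), and 204 of them had a negative change, with a median of -0.19. For miR-193* the perfect share was 88.3% and 80.2% in TghuTNF, against 86.6% and 86.9% in WT; only TghuTNF replicate 2 was low, and the log2 odds change of -0.25 ± 0.37 became 0.20 without it. In that library 64 reads of miR-193* had 2 mismatches, or 6.48%, against 1.55% in TghuTNF replicate 1 and 1.67% and 1.65% in WT. miR-193b had too few reads for this test; its perfect share was 77.6% and 68.4% in TghuTNF, against 75.4% and 69.4% in WT, and the genotypes overlapped.

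**Figure D4:**
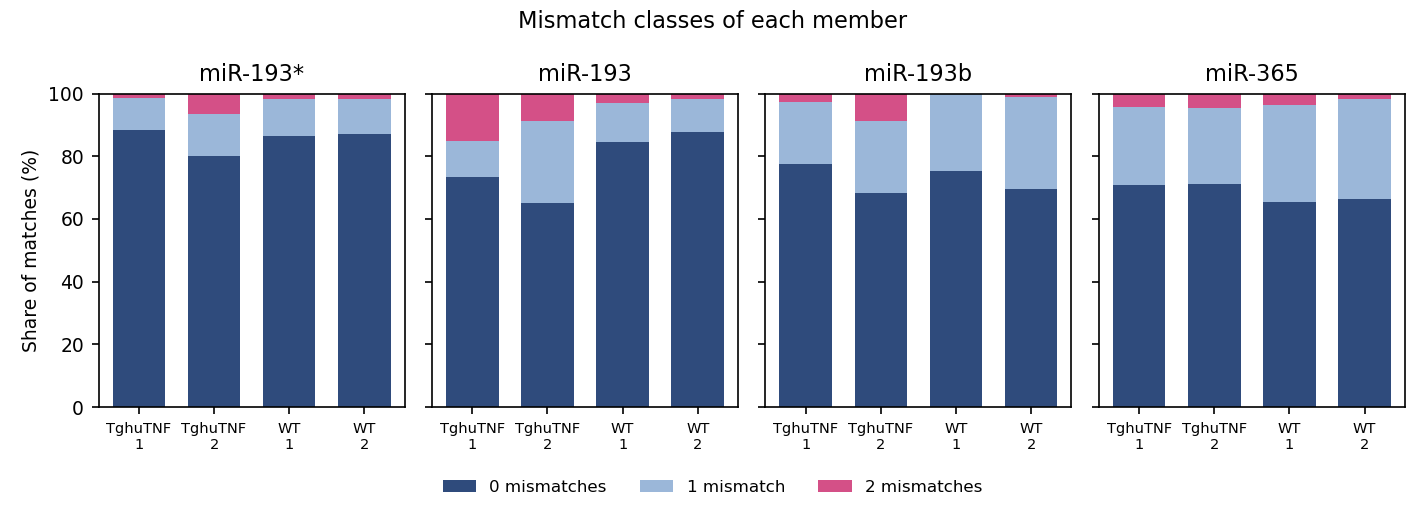
Share of each member's matches with 0 (dark blue), 1 (light blue) and 2 (pink) mismatches, in percent of its matches (y axis), for each library. miR-193 has 73.5% and 65.2% perfect matches in TghuTNF and 84.5% and 87.7% in WT, whereas miR-365 has 71.0% and 71.2% in TghuTNF and 65.4% and 66.3% in WT.

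Perfect reads of miR-193b, the member that shares the seed of miR-193, numbered 111 and 54 in TghuTNF and 43 and 59 in WT. They outnumbered the mismatch reads of miR-193 in TghuTNF replicate 1 and in both WT libraries, and were fewer than them in TghuTNF replicate 2. Whether reads of miR-193b that were shortened, or had an error at a differing base, were also counted for miR-193 was not tested. The deposited counts hold no read lengths or read sequences.

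For each member the 3 miRNAs with the nearest profile were taken among 248 with a mean of at least 10 CPM, by the Euclidean distance between log2 CPM centred on their own mean over the 4 libraries. With 4 points a close profile is easily found, so this is a description only. miR-193 was nearest to miR-145 (distance 0.15), miR-29b (0.27) and miR-369-3p (0.34). Perfect matches made up only 38.5% of those of miR-29b. miR-145 stood at 82.6 and 190 CPM in TghuTNF and 83.3 and 78.4 CPM in WT, again high in TghuTNF replicate 2 alone. miR-365 was nearest to miR-129-5p (0.23), miR-342-3p (0.25) and miR-183 (0.28). miR-129-5p stood at 382 and 348 CPM in TghuTNF and 255 and 203 CPM in WT (log2 fold change 0.67 ± 0.20, edgeR adjusted p = 0.051). miR-193b was nearest to miR-29b* (0.21), miR-125b-3p (0.24) and miR-345-3p (0.26), of which the last pair had only 1.79% and 0.11% perfect matches and are uncertain. miR-193* was nearest to let-7d (0.060), miR-93 (0.12) and miR-186* (0.12), which like it varied little. Only 19.9% of matches of miR-186* were perfect.

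**Figure D5:**
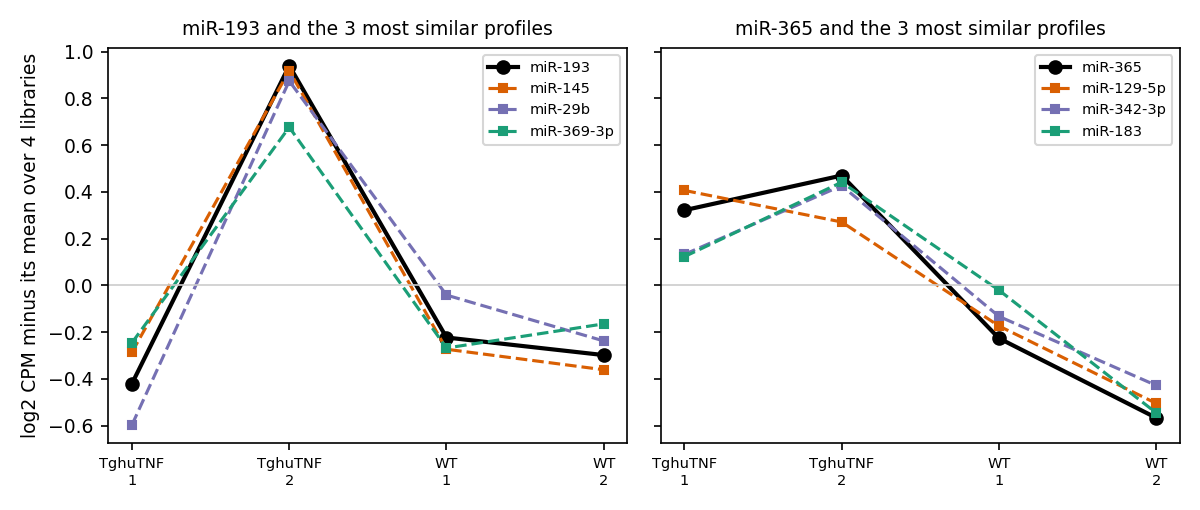
Log2 of TMM-scaled CPM minus its mean over the 4 libraries (y axis) for miR-193 (left, black) and miR-365 (right, black) with their 3 nearest profiles (dashed). miR-193, miR-145, miR-29b and miR-369-3p are highest in TghuTNF replicate 2, while miR-365 and its neighbours lie higher in both TghuTNF libraries than in both WT libraries.

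Most other miRNAs known from the settings in which the members are studied did not pass the test. Of 33 tested rows of miRNAs known from brown and beige fat, 1 rose, 5 fell and 27 did not pass, with a median log2 fold change of -0.20; over all 442 tested miRNAs 4.75% rose and 8.60% fell, with a median of 0.0056. miR-155, which is induced by inflammation and restrains brown fat formation, rose by 1.40 ± 0.22 on the log2 scale (edgeR adjusted p = 0.0019). miR-378, made from an intron of the metabolic regulator Ppargc1b, changed by -1.35 ± 0.18 (edgeR adjusted p = 7.7e-04), miR-203, best known from skin, by -1.43 ± 0.24 (edgeR adjusted p = 0.0025) and miR-455, known from cartilage and brown fat, by -1.88 ± 0.33 (edgeR adjusted p = 0.0027). Only 24.7% of matches of miR-155 and 37.4% of those of miR-203 were perfect. The most abundant row, miR-125b-5p, changed by 0.31 ± 0.15 and did not pass.

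Of 26 tested rows of miRNAs known to repress cyclin D1 or the cell cycle, 0 rose, 4 fell and 22 did not pass, with a median of -0.35, beside the same 4.75% and 8.60% over all miRNAs. All 4 that fell, miR-322, miR-322*, miR-503 and miR-503*, come from a single X-linked cluster; miR-503 stood at 1.74 and 1.02 CPM in TghuTNF and 6.45 and 7.27 CPM in WT. let-7b, the most abundant row of that list, changed by -0.018 ± 0.14. Of 11 tested rows of cartilage miRNAs, 3 rose (miR-146a, miR-140* and miR-140), 2 fell (miR-455 and miR-455*) and 6 did not pass, with a median of -0.045; 13.3% of all miRNAs were called either way.

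The counts of called marker rows below stand beside 4.75% higher, 8.60% lower and 13.3% either way over all 442 tested miRNAs. With so few rows for each cell type they are a description only. Of miRNAs taken as markers of fibroblasts or mesenchyme, the 9 tested rows of miR-143, miR-145, miR-199a, miR-214 and miR-21 were summed. They came to 284084 and 305241 CPM in TghuTNF and 282205 and 294936 CPM in WT, with 1 lower (miR-214). Most of each sum was miR-21 and miR-143. miR-145 stood at 82.6 and 190 CPM in TghuTNF and 83.3 and 78.4 CPM in WT. miR-214 stood at 117 and 99.5 CPM in TghuTNF and 256 and 156 CPM in WT. Only 0.48% of matches of miR-145* were perfect. Rows of blood cell miRNAs past the filter, 3 of 6, summed to 28.3 and 21.2 CPM in TghuTNF and 15.8 and 6.06 CPM in WT. Most of that sum was miR-142-3p, with 45.8% perfect matches, and miR-142-5p had 12.7%. Of the 3, 1 rose, the scarce miR-223, at 3.26 and 2.40 CPM in TghuTNF and 0.61 and 0.29 CPM in WT. miR-150, miR-144 and miR-451 had between 0 and 10 reads in any library. The 6 tested of 8 neural rows summed to 470 and 452 CPM in TghuTNF and 330 and 284 CPM in WT. Of them 2 were higher (miR-129-3p and miR-138), but only 30.1% of matches of miR-138 were perfect. miR-124 had 0 to 3 reads. The 5 tested of 7 muscle rows summed to 2055 and 1784 CPM in TghuTNF and 2426 and 3008 CPM in WT, and 0 were called. The 2 endothelial rows of miR-126 summed to 68.8 and 66.7 CPM in TghuTNF and 127 and 108 CPM in WT, with miR-126-3p lower. Of 10 epithelial rows 4 were tested. They summed to 36.5 and 30.3 CPM in TghuTNF and 67.6 and 70.6 CPM in WT. The fall was that of miR-203, called lower, at 25.2 and 19.8 CPM in TghuTNF and 59.0 and 62.4 CPM in WT. The other tested rows, miR-200b, miR-200c and miR-141, lay higher in both TghuTNF libraries than in both WT libraries and did not pass. Of all tested miRNAs 30.8% lay higher in this way. Only 6.02% of matches of miR-200b were perfect. miR-141 was near the floor, at 0.51 and 0.62 CPM in TghuTNF and 0.30 and 0.48 CPM in WT. miR-205 had 1 to 4 reads. The 4 chondrocyte rows summed to 18526 and 26041 CPM in TghuTNF and 12315 and 13109 CPM in WT, 2 higher and 2 lower. The summed blood cell, neural and chondrocyte rows lay higher in both TghuTNF libraries than in both WT libraries, as miR-365 did, but not every row did. Most of the neural sum was miR-129-5p, at 382 and 348 CPM in TghuTNF and 255 and 203 CPM in WT, while miR-9 and miR-9* overlapped between genotypes. Most of the chondrocyte sum was miR-140*, at 17676 and 24704 CPM in TghuTNF and 11702 and 12469 CPM in WT, while miR-455 and miR-455* were called lower. The part of such cells in the values of miR-365 was not tested.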

How the data were processed

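Small RNA of 20 to 30 and 70 to 100 nucleotides was sequenced, per the labels' protocols. The authors deposited raw read counts for each mature miRNA, made with mimap 3d from reads of 37 bases, 707 miRNAs, at most 2 mismatches and hash length 9, per the file headers. The 3 mismatch classes are deposited counts too. The trimming, the miRBase release and how reads with several matches were counted is not given in the sources used here.

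All 4 libraries were compared by genotype with edgeR 4.0.16 in R 4.3.3 (filterByExpr, TMM, quasi-likelihood test, two-sided, Benjamini-Hochberg adjustment, threshold 0.05). Perfect match odds and arm ratios (0.5 reads added) were compared with limma 3.58.1. DESeq2 1.42.0, other scalings and filters, mismatch limits, a replicate block and leaving out each library were alternatives. Tests were checked on simulated data with a set spread between replicates, which for arm ratios was smaller than that of mir-193a here. Replicates of a genotype were not duplicates (chi-square over its degrees of freedom 510 in TghuTNF and 514 in WT). Members and lists were chosen with earlier results of these data known; named miRNAs are all members, their 3 nearest profiles and, per list, up to 4 called by smallest p and the most abundant.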

Additional observations from a re-analysis of the deposited data

How the results depend on the processing

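No member was called under DESeq2, upper quartile factors, library size only, no filter, perfect matches only, 0 and 1 mismatch only, or the replicate block, and under these the log2 fold changes kept their signs. A mean CPM of at least 100 removed every member. Leaving out a library in turn gave 0 to 2 called members, the 2 being miR-193 and miR-365 without TghuTNF replicate 1, a fit that called 61 miRNAs higher and 92 lower, the most of these fits. The log2 fold change of miR-193 then ranged from -0.19 to 1.12 and that of miR-365 from 0.62 to 0.96. The log2 odds change of miR-193* ranged from -0.70 to 0.20 and the log2 arm ratio change of mir-193a from -1.44 to 0.15. Over all miRNAs, 17 to 61 were then higher and 29 to 92 lower, against 21 and 38 with all libraries. Counts were 39 higher without a filter, and 8 higher and 6 lower with a mean CPM of at least 100. With the replicate block 34 were higher and 53 lower, and miR-365 stood at 0.79 (edgeR adjusted p = 0.085); same-numbered libraries deviated with a correlation of -0.088 and share only a number. The cause of these shifts was not tested. Depth limits miR-193b most, with 57 reads in WT replicate 1.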

Other observations

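mir-193a was among 5 of 66 hairpins with a starred and an unstarred row past the filter in which the starred arm exceeded the other in every library. The other 4, named after their values were seen, were mir-140, mir-145, mir-28 and mir-503. The starred arm of mir-140, the cartilage miRNA, had 21.3 and 18.7 reads per read of the other arm in TghuTNF and 21.4 and 20.9 in WT, and with perfect matches only 12.8 and 11.1 in TghuTNF and 13.5 and 12.4 in WT. That of mir-28 had 3.21 and 3.41 in TghuTNF and 3.16 and 2.94 in WT. Only 17.5% of matches of miR-28 were perfect, and with perfect matches the ratios were 16.1 and 14.1 in TghuTNF and 12.5 and 15.2 in WT. That of mir-503 had 1.41 and 1.98 in TghuTNF and 1.16 and 1.51 in WT; 94.2% of matches of miR-503* and 94.4% of those of miR-503 were perfect, and with perfect matches its starred arm was also the more abundant in all 4 libraries. mir-145 had 4.45 and 1.60 in TghuTNF and 4.80 and 5.22 in WT, low in TghuTNF replicate 2 as mir-193a was, but only 0.48% of matches of miR-145* were perfect and with perfect matches its starred arm was the scarcer in all 4 libraries, at 0.034 and 0.019 in TghuTNF and 0.020 and 0.033 in WT.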
